A study of Bos taurus with 15 samples.

Results

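The genes that write, copy and remove DNA methylation were examined in bovine blastocysts, as 10 genes chosen by symbol among the 10832 genes of the filtered read count table. They were the DNA methyltransferases DNMT1, DNMT3A (gene 359716) and DNMT3B, the maintenance cofactor UHRF1, the dioxygenases TET1, TET2 and TET3, the DNA glycosylase TDG, and the imprint guardians TRIM28 and ZFP57. All 10 had 1 identifier each and passed the filter on low counts, so no gene of the group was lost. Levels are given as CPM, read counts scaled to a common library total with the TMM factors of edgeR. They are compared between treatments and not between genes, since transcript lengths were not used here.

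The embryos were produced in vitro and cultured without oviductal extracellular vesicles (Co, control), with fresh vesicles (FeEV) or with vesicles that had been frozen (FoEV), with 5 libraries of each. The comparisons ask whether the vesicles alter embryonic transcripts and whether freezing makes a difference. The vesicles came from oviducts of cows at the postovulatory stage, collected at a slaughterhouse. According to the paper, fresh and frozen vesicles came from the same oviducts and differed only by the freeze-thaw step. Which FeEV and FoEV pools shared vesicles is not given in the labels, and the main test took the pools as unpaired. Every library was made from 1 ng of total RNA of 1 pool of 8 to 14 blastocysts of day 7, as the labels give the age, and the libraries were selected by the study for RNA quality and concentration. No genotype or breed is given, and nothing in the labels says that the pools of 1 treatment came from separate fertilization runs. The p-values therefore measure the spread between pools, which may be technical in part. The libraries held 2136713 to 4058887 counts each. The FoEV libraries held 3392613 to 4058887 counts and the Co libraries 2571558 to 2977004, without overlap.

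In mammals, DNMT3A and DNMT3B place methyl groups on unmethylated CpG sites, whereas DNMT1 copies the pattern to the new strand after replication, guided by UHRF1, which binds hemimethylated DNA. TET enzymes oxidize 5-methylcytosine, and TDG excises the further oxidized bases so that repair restores cytosine. The preimplantation embryo is known for a broad loss of methylation followed by new methylation around the blastocyst stage, while imprinted regions stay protected by ZFP57, a KRAB zinc finger protein, and its corepressor TRIM28. Only RNA was measured in these embryos, so neither DNA methylation nor enzyme activity can be read from the values. In pooled whole blastocysts, fewer cells of a type and less RNA per cell cannot be told apart.

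All 10 genes were detected in every library. Counts per library ran from 21 to 93 for UHRF1, the gene with the fewest reads, and from 1594 to 3183 for TET1, the gene with the most. With edgeR's quasi-likelihood test and an adjusted p under 0.05, 0 of the 10 genes were called for FoEV treatment vs. Co, where 0.00923% of all genes tested were called. In FeEV treatment vs. Co 0 of 10 were called (background 0.0%), as were 0 of 10 in FoEV vs. FeEV treatment (background 0.0%). At the same adjusted threshold, the robust likelihood ratio test of edgeR and the Wald test of DESeq2 also called 0 of 10 in each comparison. Of all 10832 genes, the robust test called 311, 6 and 31 and the Wald test 144, 1 and 3, in the same order of comparisons. The methods of the study set a less strict threshold, a likelihood ratio of the robust test and not an adjusted p, for the 2 comparisons other than FoEV treatment vs. Co. At that threshold, 1 of 10 was called for FeEV treatment vs. Co (background 0.351%). This was DNMT3B, higher in FeEV, which the study also lists as upregulated there. For FoEV vs. FeEV treatment 0 of 10 were called (background 0.877%). For FoEV treatment vs. Co the study kept the adjusted p, and the robust test called 0 of 10 there (background 2.87%). At an unadjusted p under 0.05, 1 of 10 passed in each comparison. This was TET1, lower in FoEV-treated embryos than in Co (background 15.1%), DNMT3B, higher in FeEV-treated embryos than in Co (background 4.15%), and TET1 again, lower in FoEV- than in FeEV-treated embryos (background 8.52%). No gene of the group had treatments whose 5 libraries did not overlap, with 0 of 10 against 2.6% of all genes for FoEV treatment vs. Co, 0.951% for FeEV treatment vs. Co, and 1.5% between the vesicle treatments. The 3 comparisons share libraries pairwise, so they do not count as separate evidence.

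**Figure D1:**
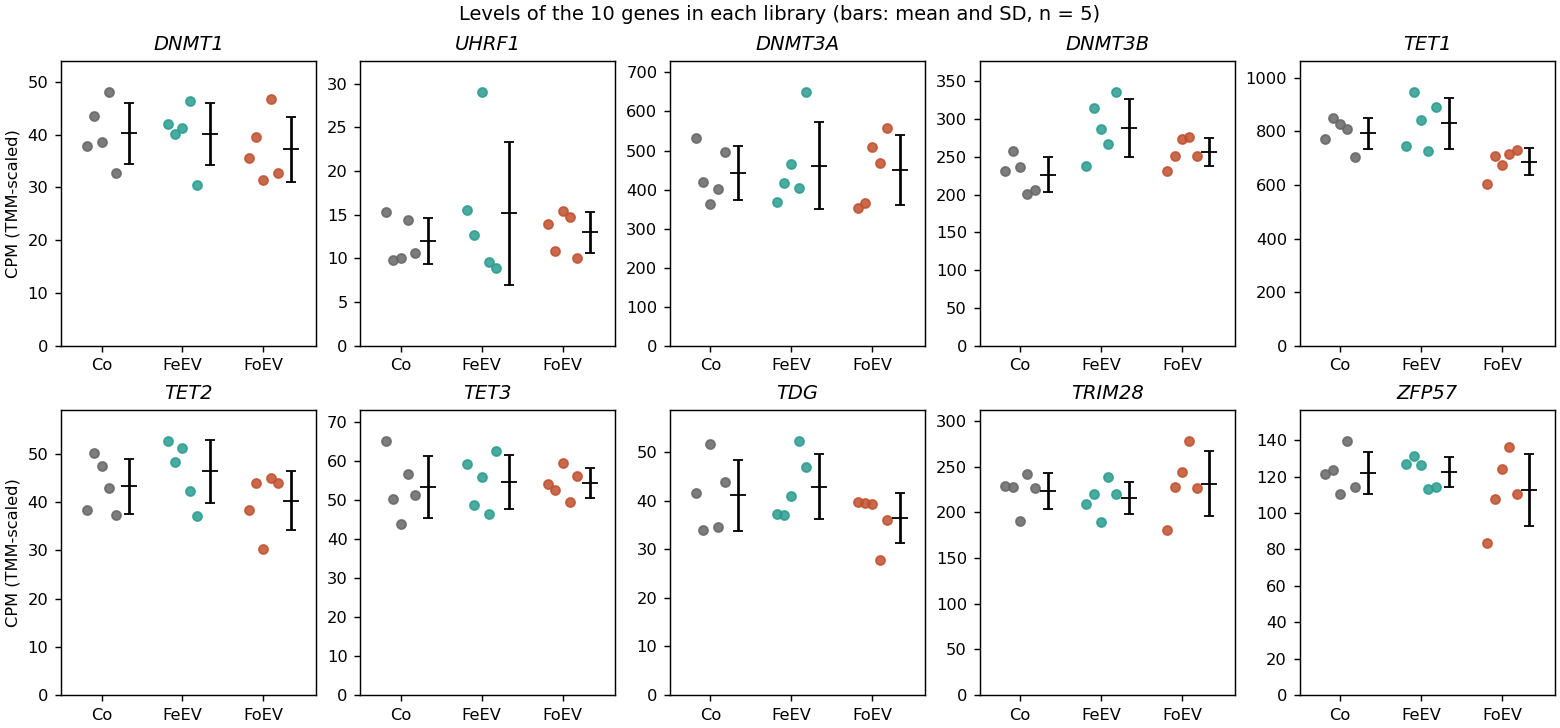
Level of each of the 10 genes in CPM (vertical axes from 0, scaled per gene) in the 5 libraries of Co, FeEV and FoEV, with each point 1 library and the bar beside it the mean and SD. DNMT3B lies between 238 and 336 CPM in FeEV and between 201.5 and 257 in Co, and TET1 lies between 605 and 730.3 CPM in FoEV and between 726 and 948 in FeEV.

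Among the de novo methyltransferases, DNMT3B had its highest mean in FeEV-treated embryos and its lowest in Co. Its level in the Co libraries was 231, 257, 237, 201.5 and 206 CPM, in the order of replicates 1 to 5. In the FeEV libraries it was 238, 315, 286, 266 and 336 CPM. In the FoEV libraries it was 232, 251, 273, 276 and 251.6 CPM. Of the 5 FeEV libraries, 4 lay above every Co library, and the remaining one lay inside the Co range. The FoEV values began inside the Co range, and 2 of 5 exceeded its top.

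The mean DNMT3B level was 227 ± 23.0 CPM in Co, 288.5 ± 38.7 under FeEV and 257 ± 18.3 under FoEV (SD, n = 5). FeEV treatment differed from Co by a log2 fold change of 0.35 (standard error 0.10, 95% interval 0.14 to 0.55, 1.27-fold), and a two-sided exact permutation test of log2 CPM gave p = 0.0159. The adjusted p of the fit over all genes was 1.0, so the difference did not pass the main test, whereas it passed the robust test at the likelihood ratio threshold of the study (log2 fold change 0.35, standard error 0.10). FoEV treatment was 0.18 above Co on the log2 scale (95% interval -0.02 to 0.38, adjusted p = 0.391, exact p = 0.0714). FoEV treatment was 0.17 below FeEV treatment on that scale (95% interval of FoEV minus FeEV -0.37 to 0.03, adjusted p = 0.626, exact p = 0.167). The smallest p that an exact test of 5 libraries against 5 allows is 0.00794, and the exact tests of the 10 genes make 30 tests in all, none of them adjusted.

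Marker sums of oviduct epithelium and of sperm were at most 13.9 CPM in the libraries where DNMT3B was compared. The sum for cumulus and granulosa cells, given below, reached 49.0 CPM. Markers of oviduct epithelium, 4 genes of which 1 (PAX8) passed the filter, summed to 8.83 to 13.9 CPM in Co, 5.199 to 10.95 in FeEV and 6.34 to 12.35 in FoEV, and the sum was lower in FeEV than in Co (exact permutation p = 0.0476, unadjusted). PAX8 held the largest share of this sum, with means of 9.65 CPM in Co, 7.12 in FeEV and 8.4 in FoEV. OVGP1, the defining oviduct glycoprotein, had 32 counts over the 15 libraries, FOXJ1 was at 0 in 8 libraries and MSLN in 12. Markers of sperm, 3 genes of which 0 passed the filter, summed to 2.19 to 12.6 CPM in Co, 0.838 to 4.77 in FeEV and 3.27 to 13.0 in FoEV, and were lower in FeEV than in Co (exact permutation p = 0.0397, unadjusted). ODF1, a sperm tail gene, was at 0 in 14 libraries. The part of these levels in the DNMT3B values was not tested.

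DNMT3A, the second de novo enzyme, varied more within treatments than between them. Its level was 532, 421, 364, 401 and 495 CPM in Co, 367.5, 417, 466, 404 and 651 CPM in FeEV, and 353, 366, 510.3, 468 and 559 CPM in FoEV. Its highest value was that of FeEV replicate 5. The means were 442 ± 69.2, 461 ± 112 and 451 ± 89.8 CPM (SD, n = 5), and the spread of 15.7% to 24.2% around them was far above the counting error of 2.46% to 2.88%. The log2 fold changes were 0.03 for FoEV treatment vs. Co (95% interval -0.31 to 0.37), 0.06 for FeEV treatment vs. Co (-0.28 to 0.40) and -0.03 between FoEV and FeEV treatment (-0.37 to 0.30). The exact permutation p for DNMT3A were 0.929, 0.802 and 0.897.

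DNMT3L, the catalytically inactive partner that stimulates both de novo enzymes, did not pass the filter, with 3 counts over all 15 libraries. Within a library, the log2 ratio of DNMT3B to DNMT3A counts does not depend on scaling. It was -0.96 ± 0.29 in Co, -0.66 ± 0.20 under FeEV and -0.79 ± 0.24 under FoEV (SD, n = 5). The difference between FeEV and Co was 0.30 (exact permutation p = 0.0873, adjusted p = 0.333 over the 12 ratio tests), and the libraries overlapped. The ratio in FoEV was 0.16 above Co (exact p = 0.341) and 0.14 below FeEV (exact p = 0.373). Deviations of DNMT3A and DNMT3B from their treatment means had a Pearson r of 0.490 over 15 libraries (permutation p = 0.0943, adjusted p = 0.283 over 3 pairs) and a Spearman rho of 0.539 (permutation p = 0.0505, adjusted p = 0.152). Without the 2 libraries farthest from the median of DNMT3A, r was 0.375.

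The maintenance pair, DNMT1 and UHRF1, gave no difference between treatments beyond the spread of the pools. DNMT1 was at 37.9, 43.5, 38.7, 48.2 and 32.8 CPM in Co, at 42.0, 40.1, 41.3, 46.45 and 30.45 CPM in FeEV, and at 35.7, 39.6, 31.4, 46.7 and 32.7 CPM in FoEV. The means of 40.2 ± 5.84, 40.1 ± 5.89 and 37.2 ± 6.18 CPM (SD, n = 5) lay within 1 SD of each other. The log2 fold change of DNMT1 was -0.12 for FoEV treatment vs. Co (95% interval -0.40 to 0.17, exact permutation p = 0.413). It was -0.01 for FeEV treatment vs. Co (-0.30 to 0.28, exact p = 0.960) and -0.10 between FoEV and FeEV treatment (-0.39 to 0.18, exact p = 0.468).

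UHRF1 had the widest spread of the 10 genes, with a biological coefficient of variation of 26.7%, above that of 90.5% of all genes tested. Its level was 15.3, 9.78, 9.997, 14.45 and 10.7 CPM in Co, 15.5, 12.6, 29.1, 9.56 and 8.94 CPM in FeEV, and 13.9, 10.85, 15.4, 14.7 and 10.1 CPM in FoEV. FeEV replicate 3, with 93 counts, lay far above the other 14 libraries, which lay between 8.94 and 15.5 CPM. The log2 fold change for FeEV treatment vs. Co was 0.35 with all libraries (95% interval -0.21 to 0.91, exact permutation p = 0.611) and -0.04 without FeEV replicate 3. For FoEV vs. FeEV treatment it was -0.24 with all libraries (95% interval -0.78 to 0.31, exact p = 0.810) and 0.15 without that library. For FoEV treatment vs. Co it was 0.11 (95% interval -0.45 to 0.67, exact p = 0.516). At these counts the counting error alone was 14.4% to 17.5%, so differences of that size in UHRF1 were not detectable in 1 library.

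The log2 ratio of DNMT1 to UHRF1 counts was 1.74 ± 0.32 in Co, 1.52 ± 0.64 under FeEV and 1.51 ± 0.33 under FoEV (SD, n = 5). It was lowest in FeEV replicate 3, at 0.50. The ratio in FoEV was 0.22 below Co (exact permutation p = 0.310, adjusted p = 0.560), and that in FeEV was also 0.22 below Co (exact p = 0.556, adjusted p = 0.667). The deviations of DNMT1 and UHRF1 had a Pearson r of 0.238 (permutation p = 0.443, adjusted p = 0.665) and a Spearman rho of 0.171 (permutation p = 0.563, adjusted p = 0.718). Without the 2 libraries farthest from the median of DNMT1, r was -0.01.

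**Figure D2:**
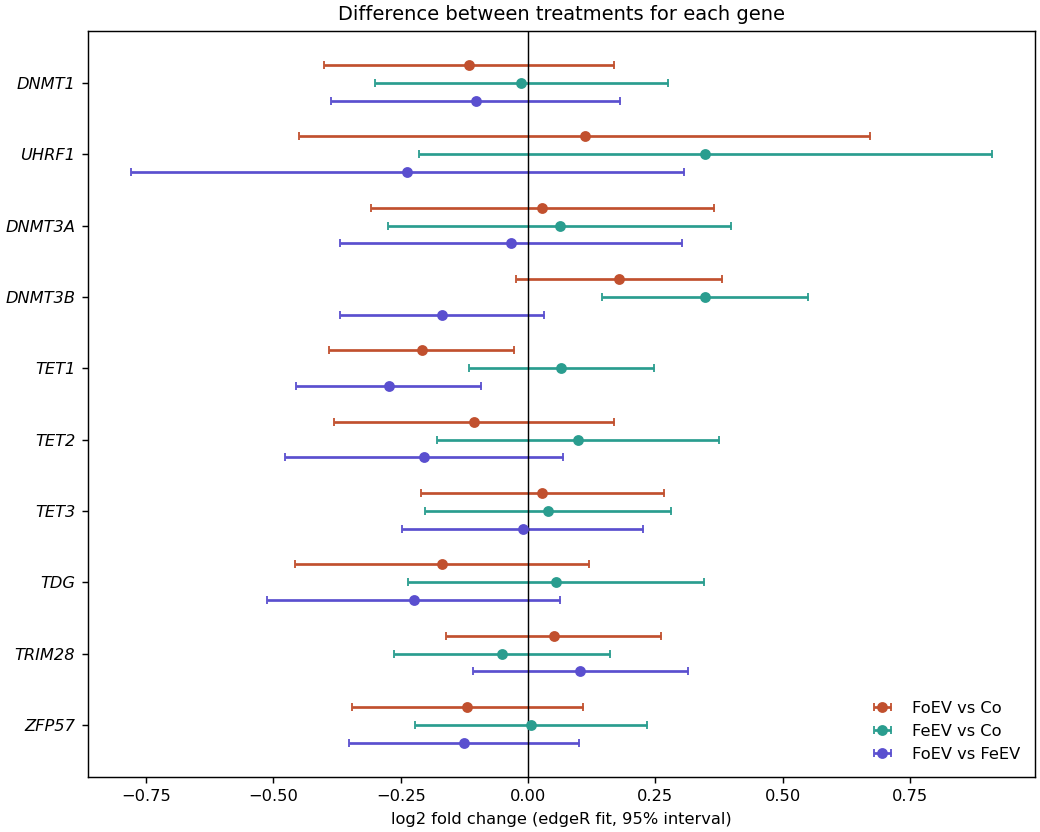
Log2 fold change of each of the 10 genes in the edgeR fit (horizontal axis, first treatment over second) for FoEV vs. Co, FeEV vs. Co and FoEV vs. FeEV, with bars for the 95% interval. The intervals that leave out 0 are those of DNMT3B for FeEV vs. Co (0.14 to 0.55) and of TET1 for FoEV vs. Co (-0.39 to -0.03) and FoEV vs. FeEV (-0.46 to -0.09).

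On the side of demethylation, TET1 was lowest in FoEV-treated embryos. Its level was 772, 851, 829, 811 and 705 CPM in Co and 746, 948, 841, 726 and 889 CPM in FeEV. In the FoEV libraries it was 605, 707, 676, 715 and 730.3 CPM. Every FoEV library lay below the median of Co and below the median of FeEV. Against FeEV, 4 of the 5 FoEV libraries lay below every library of the other treatment, and against Co 2 did.

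The mean TET1 level was 793.5 ± 57.6 CPM in Co, 830.1 ± 94.3 under FeEV and 687 ± 50.0 under FoEV (SD, n = 5). FoEV treatment differed from FeEV treatment by a log2 fold change of -0.27 (standard error 0.09, 95% interval -0.46 to -0.09, 0.827-fold), with an exact permutation p of 0.0159 and an adjusted p of 0.467. FoEV treatment differed from Co by -0.21 (standard error 0.09, 95% interval -0.39 to -0.03, 0.865-fold), with an exact permutation p of 0.0317 and an adjusted p of 0.259. Neither difference passed the test over all genes. FeEV treatment and Co differed by 0.07 (95% interval -0.12 to 0.25, exact p = 0.5). TET1 had the smallest biological coefficient of variation of the group, 10.4%, and 11.2% of all genes tested had a lower one.

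Library size and some markers of cell types moved with the FoEV libraries as well. With every library thinned to the smallest total, the log2 fold change of TET1 was -0.21 for FoEV treatment vs. Co (adjusted p = 0.300) and -0.27 for FoEV vs. FeEV treatment (adjusted p = 0.508). The 6 trophectoderm markers, all past the filter and none at 0 in any library, summed to 6622 to 9010.0 CPM in Co, 7298 to 10840.0 in FeEV and 8553 to 11560.0 in FoEV. In FoEV their sum lay 0.35 above that of Co on the log2 scale (exact permutation p = 0.0159, unadjusted over 18 marker tests), and most of it came from the keratins KRT8 and KRT18. Between FoEV and FeEV it differed by 0.16 (exact p = 0.238). The 6 epiblast markers, of which 4 passed the filter and FGF4 was at 0 in 9 libraries, summed to 262.8 to 334 CPM in Co, 249 to 310.2 in FeEV and 229.8 to 369 in FoEV, with an exact permutation p of 0.659 for FoEV treatment vs. Co. POU5F1 held the largest share of this sum, with means of 168 CPM in Co, 185 in FeEV and 194 in FoEV. NANOG, a pluripotency factor of the epiblast, had means of 80.4, 52.1 and 45.0 CPM in that order, with a log2 fold change of -0.84 for FoEV treatment vs. Co (adjusted p = 0.178) and -0.22 for FoEV vs. FeEV treatment (adjusted p = 0.828). The 5 hypoblast markers, of which 4 passed the filter, summed to 542 to 860.1, 590.2 to 735 and 548 to 745 CPM in the same order (exact p = 0.254 for FoEV treatment vs. Co). GATA6 held the largest share of this sum, with means of 437, 404 and 428 CPM. PDGFRA had means of 191, 168 and 139.5 CPM and HNF4A of 81.75, 68.4 and 56.5 CPM. GATA4 (4.77, 4.975 and 5.93 CPM) and SOX17, below the filter (1.68, 1.98 and 1.92 CPM), were not lower in FoEV than in Co. The 6 cumulus and granulosa cell markers, of which 3 passed the filter and PTX3 was at 0 in 14 libraries, summed to 28.7 to 42.9, 31.3 to 49.0 and 27.8 to 48.4 CPM (exact p = 0.548). The sperm markers, whose ranges are given above, were higher in FoEV than in FeEV by 1.53 on the log2 scale (exact permutation p = 0.0238, unadjusted). The part of the cell types in the TET1 values was not tested.

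TET2 lay at 37.3 to 50.3 CPM in Co, 37.1 to 52.8 in FeEV and 30.3 to 45.1 in FoEV. Its means were 43.25 ± 5.62, 46.4 ± 6.51 and 40.3 ± 6.16 CPM (SD, n = 5), in the same order of treatments as the means of TET1. The log2 fold change of TET2 was -0.20 for FoEV vs. FeEV treatment (95% interval -0.48 to 0.07, exact permutation p = 0.214), -0.11 for FoEV treatment vs. Co (-0.38 to 0.17, exact p = 0.484) and 0.10 for FeEV treatment vs. Co (-0.18 to 0.37, exact p = 0.429).

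TET3, the TET enzyme known from the oocyte and zygote, had close means in the 3 treatments, at 53.5 ± 8.00 CPM in Co, 54.6 ± 6.88 under FeEV and 54.4 ± 3.77 under FoEV (SD, n = 5). Its log2 fold changes were 0.03 for FoEV treatment vs. Co (95% interval -0.21 to 0.27), 0.04 for FeEV treatment vs. Co (-0.20 to 0.28) and -0.01 between FoEV and FeEV treatment (-0.25 to 0.23). In FoEV the spread of TET3, 6.94%, was no larger than the counting error of 7.03%. The exact permutation p for TET3 were 0.754, 0.778 and 0.976.

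The log2 ratio of TET1 to TET3 counts was 3.897 ± 0.26 in Co, 3.92 ± 0.23 under FeEV and 3.65 ± 0.16 under FoEV (SD, n = 5). FoEV was below FeEV by a difference of -0.27 (exact permutation p = 0.0635, adjusted p = 0.333) and below Co by a difference of -0.24 (exact p = 0.111, adjusted p = 0.333). FeEV and Co differed by 0.03 (exact p = 0.865). The deviations of TET1 and TET3 had a Pearson r of -0.07 over 15 libraries (permutation p = 0.816, adjusted p = 0.816) and a Spearman rho of -0.11 (permutation p = 0.718, adjusted p = 0.718). Without the 2 libraries farthest from the median of TET1, r was -0.35.

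TDG, which excises 5-formylcytosine and 5-carboxylcytosine, lay at 34.1 to 51.6 CPM in Co, 37.1 to 52.4 in FeEV and 27.7 to 39.8 in FoEV. The means were 41.1 ± 7.26, 42.9 ± 6.61 and 36.5 ± 5.16 CPM (SD, n = 5). All 5 FoEV libraries lay below the median of Co and below that of FeEV, but within the range of both treatments apart from 1 library below all of Co and 2 below all of FeEV. The log2 fold change of TDG was -0.22 for FoEV vs. FeEV treatment (95% interval -0.51 to 0.06, exact permutation p = 0.167), -0.17 for FoEV treatment vs. Co (-0.46 to 0.12, exact p = 0.317) and 0.06 for FeEV treatment vs. Co (-0.24 to 0.35, exact p = 0.667).

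The balance of the methyltransferases and the TET genes was read from the log2 ratio of the summed counts of DNMT1, DNMT3A and DNMT3B to those of TET1, TET2 and TET3. In Co it was -0.13, -0.40, -0.53, -0.49 and -0.11. In FeEV it was -0.41, -0.44, -0.26, -0.18 and 0.04. In FoEV it was -0.17, -0.29, 0.09, -0.03 and 0.02. The means were -0.33 ± 0.20, -0.25 ± 0.19 and -0.08 ± 0.15 (SD, n = 5), so the mean ratio was highest in FoEV. FoEV was 0.25 above Co, and the libraries overlapped (exact permutation p = 0.0635, adjusted p = 0.333 over the 12 ratio tests). FoEV was 0.17 above FeEV (exact p = 0.167, adjusted p = 0.4001), and FeEV was 0.08 above Co (exact p = 0.540, adjusted p = 0.667). Of the 12 ratio tests, 0 passed an adjusted p under 0.05, and 0 had an unadjusted exact p under 0.05. DNMT3A and TET1 hold the most counts on each side of these sums. From Co to FoEV, the mean of DNMT3A moved from 442 to 451 CPM and that of DNMT3B from 227 to 257 CPM. The mean of TET1 moved from 793.5 to 687 CPM. The part of each gene in the difference was not tested.

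**Figure D3:**
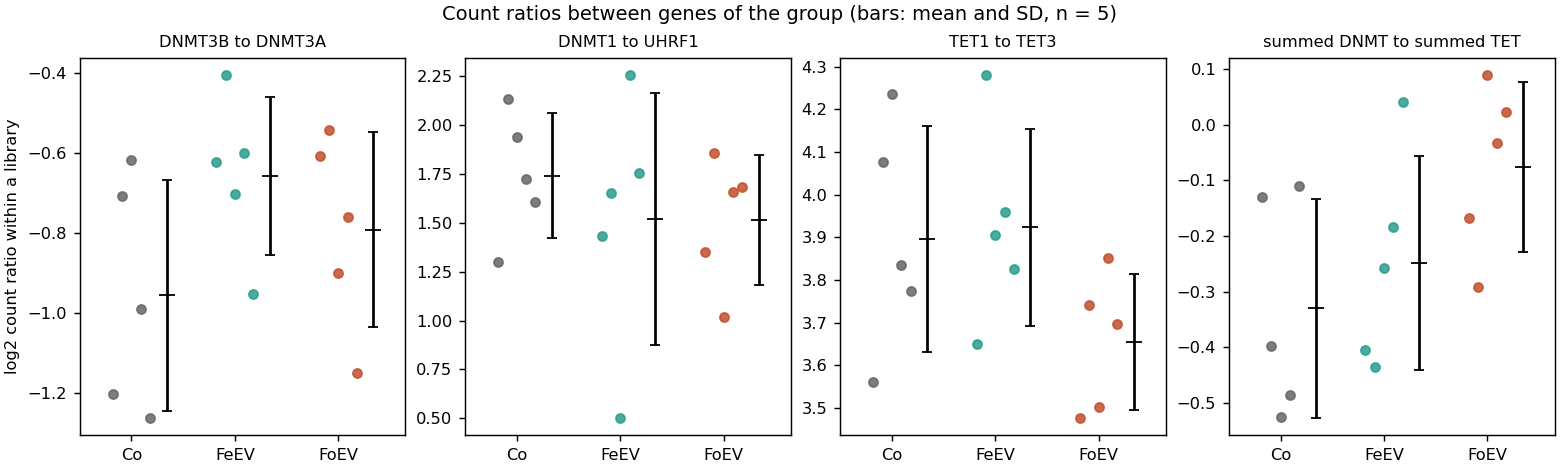
Log2 count ratio within each library (vertical axis) for DNMT3B to DNMT3A, DNMT1 to UHRF1, TET1 to TET3 and the summed DNMT to the summed TET genes, with each point 1 of the 5 libraries of Co, FeEV and FoEV and the bar the mean and SD. The treatments overlap in all 4 ratios, and the low point of DNMT1 to UHRF1 at 0.50 is FeEV replicate 3.

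The imprint guardians gave values close to each other in the 3 treatments. TRIM28, the scaffold that KRAB zinc finger proteins recruit, lay at 191 to 242 CPM in Co, 189.6 to 239 in FeEV and 181 to 278 in FoEV, with means of 223 ± 19.3, 215.5 ± 17.97 and 231.5 ± 35.1 CPM (SD, n = 5). Its log2 fold changes were 0.05 for FoEV treatment vs. Co (95% interval -0.16 to 0.26), -0.05 for FeEV treatment vs. Co (-0.26 to 0.16) and 0.10 between FoEV and FeEV treatment (-0.11 to 0.31). The exact permutation p for TRIM28 were 0.778, 0.532 and 0.437. The FoEV libraries spread the widest and held both the lowest and the highest TRIM28 value.

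ZFP57, which binds the methylated allele of imprinted regions, lay at 110.3 to 139.7 CPM in Co, 113 to 131.5 in FeEV and 83.6 to 136 in FoEV. The means were 122 ± 11.3, 122 ± 8.18 and 112 ± 19.8 CPM (SD, n = 5). Its log2 fold changes were -0.12 for FoEV treatment vs. Co (95% interval -0.35 to 0.11), 0.01 for FeEV treatment vs. Co (-0.22 to 0.23) and -0.13 between FoEV and FeEV treatment (-0.35 to 0.10). The exact permutation p for ZFP57 were 0.365, 0.905 and 0.317. As with TRIM28, the spread in FoEV was the widest of the 3 treatments.

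Over the 10 genes, the median log2 fold change was -0.04 for FoEV treatment vs. Co, with 5 higher and 5 lower, against a median of 0.01 over all genes. For FeEV treatment vs. Co it was 0.06, with 8 higher and 2 lower, against 0.0039 over all genes. For FoEV vs. FeEV treatment it was -0.15, with 1 higher (TRIM28) and 9 lower, against 0.01 over all genes. Of all genes, 5664 were higher and 5166 lower for FoEV treatment vs. Co, and 5526 and 5301 for FeEV treatment vs. Co. For FoEV vs. FeEV treatment, 5609 were higher and 5222 lower. None of the 30 values of the 10 genes passed the adjusted test, and genes of 1 library are not independent.

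The alternatives to the main analysis left DNMT3B and TET1 in the same direction in every comparison. For DNMT3B in FeEV treatment vs. Co, the log2 fold change ran from 0.32 to 0.38 over the other tests, scalings and blocks (adjusted p 0.251 to 0.999) and from 0.29 to 0.41 with 1 library left out. For TET1 in FoEV vs. FeEV treatment it ran from -0.28 to -0.26 (adjusted p 0.198 to 0.762) and from -0.32 to -0.22 with 1 library left out. For TET1 in FoEV treatment vs. Co it ran from -0.26 to -0.21 (adjusted p 0.146 to 0.382) and from -0.25 to -0.17.

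**Figure D4:**
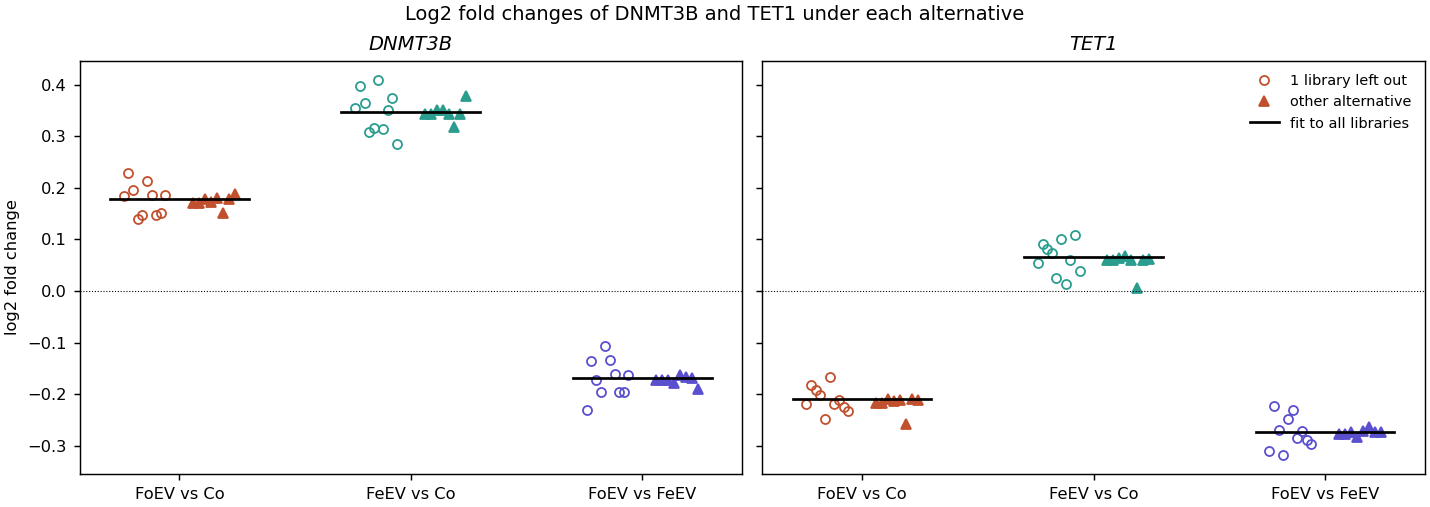
Log2 fold change (vertical axis) of DNMT3B and TET1 for the 3 comparisons, with the fit to all libraries as a line, the fits that leave out 1 library as open circles and the other alternatives as triangles. For FeEV vs. Co, every DNMT3B value lies between 0.29 and 0.41, and for FoEV vs. FeEV every TET1 value lies between -0.32 and -0.22.

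Genes that work with the group were described from 5 lists of 63 genes in all, of which 56 were measured after the filter. The other 7 (ZBTB4, DNMT3L, NEIL1, NEIL2, SHMT1, BHMT and GNMT) did not pass it. Of the 56 genes, the quasi-likelihood test called 0 in each comparison at an adjusted p under 0.05. At an unadjusted p under 0.05, 8 of 56 passed for FoEV treatment vs. Co (1 higher and 7 lower, 14.3% against 15.1% of all genes). For FeEV treatment vs. Co, 3 of 56 passed (1 higher and 2 lower, 5.36% against 4.15%), and for FoEV vs. FeEV treatment 6 of 56 (1 higher and 5 lower, 10.7% against 8.52%). The shares were close to those of all genes. Over all genes at the same threshold, 886 of 1631 were higher for FoEV treatment vs. Co, 198 of 449 for FeEV treatment vs. Co and 523 of 923 between the vesicle treatments. The balance of higher and lower genes in the lists was not tested against that of all genes. None of the values named in the next paragraphs passed the adjusted test.

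Among the cofactors of methylation, 2 of 11 measured genes passed the unadjusted threshold for FoEV treatment vs. Co, both lower (background 15.1% of all genes in either direction). CDCA7 recruits the remodelling helicase HELLS to chromatin, and loss of either is known to lower DNA methylation. CDCA7 was at 15.5 ± 2.97 CPM in FoEV and 22.4 ± 2.58 in Co (log2 fold change -0.55, standard error 0.17, adjusted p = 0.162). HELLS was at 76.6 ± 7.69 CPM in FoEV and 91.4 ± 5.43 in Co (log2 fold change -0.26, adjusted p = 0.206). CDCA7 was also lower in FoEV than in FeEV, where it was at 21.2 ± 4.76 CPM (log2 fold change -0.45, adjusted p = 0.501). NSD1, a methyltransferase of histone H3 lysine residues whose mark attracts de novo enzymes, was at 373 ± 36.4 CPM in FoEV and 435 ± 23.0 in FeEV (log2 fold change -0.22, adjusted p = 0.501). The list had a median log2 fold change of 0.02 for FoEV treatment vs. Co, 0.04 for FeEV treatment vs. Co and -0.08 between the vesicle treatments.

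Of the 9 partners of TRIM28, 3 passed the unadjusted threshold for FoEV treatment vs. Co, all lower (background 15.1% of all genes in either direction). CBX5 and CBX3 encode heterochromatin proteins (HP1 alpha and gamma) that TRIM28 binds, and HDAC2 is a histone deacetylase. CBX1, the gene of HP1 beta, lay higher in FoEV than in Co (log2 fold change 0.43) but did not pass that threshold. Of the 9 genes, 4 lay higher and 5 lower. CBX5 was at 199 to 259 CPM in FoEV and 263.5 to 339 in Co, without overlap (log2 fold change -0.31, standard error 0.11, adjusted p = 0.179). Over all genes, 2.6% had no overlap between FoEV and Co. HDAC2 was at 52.1 to 67.1 CPM in FoEV and 63.1 to 84.0 in Co (log2 fold change -0.31, adjusted p = 0.235). CBX3 was at 90.1 to 121.5 CPM in FoEV and 104 to 132 in Co (log2 fold change -0.20, adjusted p = 0.321). Against FeEV, the log2 fold changes of CBX5 and HDAC2 were -0.29 (adjusted p = 0.496) and -0.33 (adjusted p = 0.5). The median of the list was -0.08 for FoEV treatment vs. Co, 0.04 for FeEV treatment vs. Co and -0.06 between the vesicle treatments.

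The list of readers of methylated DNA also holds proteins of the same families, and a place in it does not show binding to methylated DNA. Among its 10 measured genes, 1 passed the unadjusted threshold for FoEV treatment vs. Co (background 15.1%), which was MBD3. It also passed for FoEV vs. FeEV treatment (background 8.52%). MBD3, the methyl-CpG binding domain protein of the NuRD complex, was at 41.8 ± 6.31 CPM in FoEV, 33.8 ± 3.36 in FeEV and 32.9 ± 6.32 in Co (SD, n = 5). Its log2 fold change was 0.34 for FoEV treatment vs. Co (adjusted p = 0.241) and 0.30 for FoEV vs. FeEV treatment (adjusted p = 0.563). The median of the list was -0.04 for FoEV treatment against Co, -0.03 for FeEV treatment against Co and 0.01 between the vesicle treatments.

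Of the 15 measured genes of base excision repair and demethylation, 0 passed the unadjusted threshold in the comparisons that hold FoEV libraries. The background there was 15.1% against Co and 8.52% against FeEV. For FeEV treatment vs. Co 2 passed (background 4.15%). APEX1, the endonuclease that cuts the abasic site left by TDG, was at 67.0 ± 6.18 CPM in FeEV and 78.5 ± 6.24 in Co (log2 fold change -0.23, adjusted p = 1.0). OGT, the O-GlcNAc transferase that binds TET proteins, was at 150.1 ± 33.7 CPM in FeEV and 114 ± 17.1 in Co (log2 fold change 0.39, adjusted p = 1.0). The medians of the list were 0.09, -0.06 and 0.02 in the same order of comparisons.

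The methyl donor cycle, which makes and recycles S-adenosylmethionine, had 12 measured genes. Of these, 10 lay lower than Co under FoEV treatment (median -0.14), where 5166 of all 10832 genes lay lower. Under FeEV treatment 10 lay lower than Co (median -0.09, 5301 of all genes lower), and both comparisons share the Co libraries. In FoEV 8 lay lower than in FeEV (median -0.02, 5222 of all genes lower). At an unadjusted p under 0.05, 2 of 12 passed for FoEV treatment vs. Co (background 15.1%). For FeEV treatment vs. Co 1 passed (background 4.15%), as did 1 for FoEV vs. FeEV treatment (background 8.52%). MAT2B, the regulatory subunit of methionine adenosyltransferase, was at 32.3 ± 4.90 CPM in FoEV, 31.3 ± 5.25 in FeEV and 40.3 ± 6.54 in Co (SD, n = 5). Its log2 fold change was -0.32 for FoEV treatment vs. Co (adjusted p = 0.297) and -0.37 for FeEV treatment vs. Co (adjusted p = 1.0). AHCYL2, related to the enzyme that clears S-adenosylhomocysteine, was at 93.2 ± 24.2 CPM in FoEV and 123 ± 28.4 in Co (log2 fold change -0.41, adjusted p = 0.312). MTR, methionine synthase, was at 35.02 ± 7.78 CPM in FoEV and 43.7 ± 4.65 in FeEV (log2 fold change -0.32, adjusted p = 0.563).

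**Figure D5:**
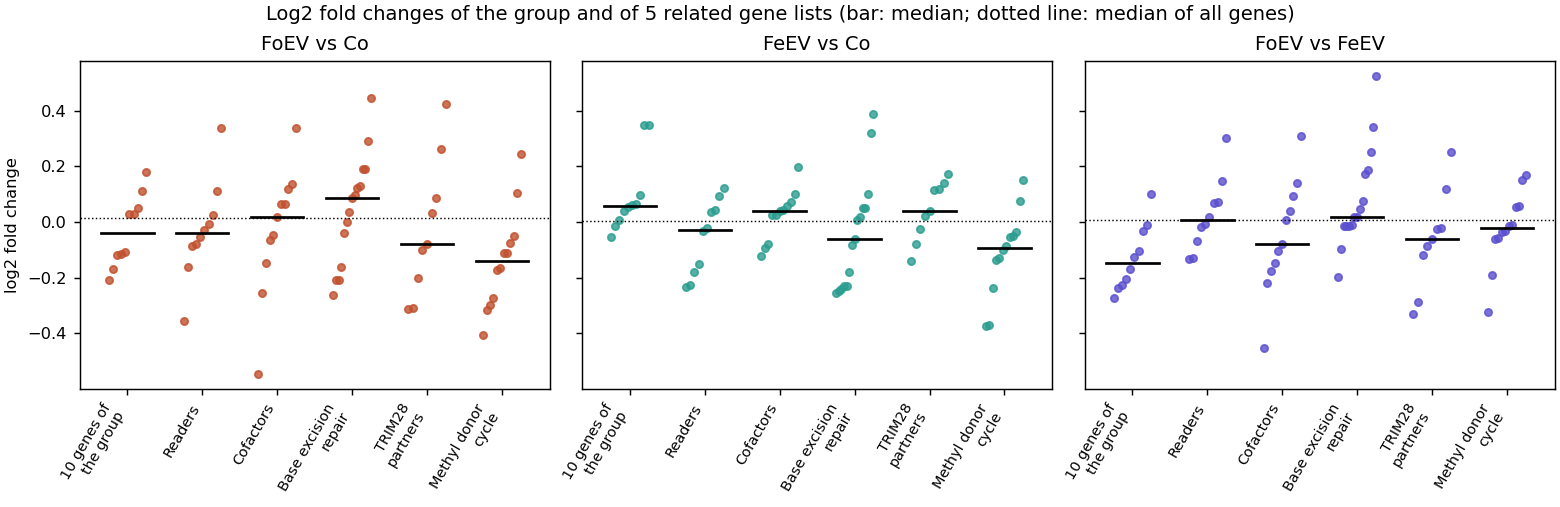
Log2 fold change (vertical axis) of the 10 genes of the group and of the measured genes of 5 related lists, for FoEV vs. Co, FeEV vs. Co and FoEV vs. FeEV, with each point 1 gene, the bar the median of a list and the dotted line the median of all genes. The lowest point for FoEV vs. Co is CDCA7 at -0.55, and the medians of the methyl donor cycle are -0.14, -0.09 and -0.02 in the 3 comparisons.

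For DNMT1, DNMT3B and TET1, the genes with the most similar level over the 15 libraries were listed by the Pearson correlation of log2 CPM, as a description over libraries that share 3 treatments. For DNMT1 they were CDC14A (r = 0.894), SFMBT2 (r = 0.866) and CCDC88A (r = 0.862). For DNMT3B they were PPP1R12B (r = 0.856), NUCKS1 (r = 0.808) and NCOA1 (r = 0.791). For TET1 they were CNOT6 (r = 0.836), WDR47 (r = 0.833) and PTBP3 (r = 0.829). These were the highest of 10832 genes, and none of them belongs to the group or to the 5 lists.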

How the data were processed

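Total RNA of 15 pools of bovine blastocysts was sequenced. Libraries were prepared with the Ovation SOLO kit, which removes ribosomal fragments and selects the strand, and run single-end on an Illumina HiSeq instrument. The authors mapped the reads to the ARS-UCD1.2 assembly, used the gene annotation of NCBI, and deposited raw read counts per gene, once for 34773 genes and once for the 10832 kept after their filter on low counts. The paper names QuasR Qcount as the counter, whereas the submitters' processing notes name Trim Galore 0.4.3.1, HISAT2 2.1.0 and featureCounts 1.6.3. The labels give the embryo age as 7 days and the paper the culture as 8 days. Samples were grouped by the treatment in the labels.

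The filtered counts were fitted with edgeR 4.0.16 (R 4.3.3): TMM scaling, estimateDisp, glmQLFit with robust estimation and glmQLFTest, 1 fit over 15 libraries with treatment as the only factor, and Benjamini-Hochberg adjustment over 10832 genes. Single values were compared by an exact permutation test (two-sided, all 252 ways to split 10 libraries into 5 and 5), on log2 CPM with a prior count of 2. Ratios were computed from raw counts + 0.5. Correlations used deviations from treatment means and 100000 permutations within treatments. Python 3.11.15 with numpy 2.4.6, pandas 2.3.3, scipy 1.17.1 and matplotlib 3.10.9 was used. DESeq2 1.42.0, the robust likelihood ratio test of the study, other scaling, the unfiltered table, replicate blocks, thinned counts and leaving out each library were alternatives, called at an adjusted p under 0.05. The robust test was also read at the likelihood ratio threshold in the study's methods, an alternative chosen after seeing the data. The tests were tested on simulated data.

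The genes of the group, the related lists, the markers and the tests were chosen with earlier results of these data known. The rule for named genes took every gene of the group, up to 3 genes with the smallest unadjusted p under 0.05 from each related list and comparison, and the 3 genes most like DNMT1, DNMT3B and TET1. Totals per library ran from 2136713 to 4058887 counts, and counting errors cover counting only, since no molecular identifiers separate PCR copies from molecules.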

Additional observations from a re-analysis of the deposited data

Results flagged for a closer look

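The values of the 10 genes and the 4 ratios were examined for a library far from the others of its treatment with Dixon's 95% criterion, in 42 groups of 5 libraries. It marked 0 groups, where chance would mark about 2.1.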

How the results depend on the processing

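At an adjusted p under 0.05 no gene of the group was called under any alternative, and all 30 log2 fold changes kept their direction with the size factors of DESeq2, its Wald test, fits to the 2 treatments alone, the unfiltered table and the replicate block. The numbers of genes called depended on the test. For FoEV treatment vs. Co (1 gene in the main analysis) they were 144 with the Wald test of DESeq2, 311 with the robust likelihood ratio test, 173 with the unfiltered table, 5 with only the 2 treatments, and 0 to 58 with 1 library left out (58 without FoEV replicate 2, 14 without FoEV replicate 3, 4 without Co replicate 2, and 0 without Co replicates 3 and 4 or FoEV replicates 1, 4 and 5). For FeEV treatment vs. Co and between the vesicle treatments (0 genes each, with 449 and 923 at an unadjusted p under 0.05) they were 1 and 3 with the Wald test, 6 and 31 with the robust test and 13 and 22 with the unfiltered table. With the likelihood ratio threshold of the study in the robust test, chosen after seeing the data, they were 38 and 95, and DNMT3B was among the first. The study itself reported fewer genes in each comparison than the robust test called here at its thresholds. With 1 library left out, the numbers called in the main test were 0 to 0 for FeEV treatment vs. Co. For FoEV vs. FeEV treatment they were 0 to 1 (1 without FeEV replicate 5). The cause was not tested.

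Libraries with the same number in their titles had a mean correlation of deviations of 0.119, from -0.291 to 0.441. Of these 15 pairs, 7 were over 0.1, and the mean of the others was -0.03. For the numbers in the descriptions the mean was 0.081, with 3 of 10 pairs over 0.1, against -0.0123 for the others. What the numbers in the descriptions mark is not stated, and the main analysis used neither numbering as a pairing. With the replicate block of the titles, 57 genes were called for FoEV treatment vs. Co. With the block by the numbers in the descriptions, 12 were called there and 1 for FoEV vs. FeEV treatment.

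Log2 fold changes near 0 changed sign in places. For FeEV treatment vs. Co, DNMT1 was at 0.0596 and TRIM28 at 0.0413 with the block from the descriptions, DNMT1 at 0.0162 and ZFP57 at -0.0094 with thinned counts, and DNMT3A at -0.0193 with the robust test. For FoEV vs. FeEV treatment, DNMT3A was at 0.0375 and UHRF1 at 0.0156 with the robust test, TET3 at 0.0176 with the block from the descriptions, and the ratio of DNMT1 to UHRF1 at 0.0055 with a pseudocount of 2. With 1 library left out, ranges for FoEV treatment vs. Co were -0.0606 to 0.11 for DNMT3A, -0.0374 to 0.11 for TET3 and -0.0236 to 0.13 for TRIM28. For FeEV treatment vs. Co they were -0.0753 to 0.0751 for DNMT1, -0.0958 to 0.14 for DNMT3A, -0.036 to 0.50 for UHRF1, -0.0266 to 0.12 for TET3, -0.0192 to 0.15 for TDG and -0.0281 to 0.0593 for ZFP57. For FoEV vs. FeEV treatment they were -0.12 to 0.12 for DNMT3A, -0.39 to 0.15 for UHRF1 and -0.0601 to 0.0436 for TET3.

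Among the ratios with 1 library left out, DNMT3B to DNMT3A ran from 0.22 to 0.38 for FeEV treatment vs. Co, and passed an unadjusted exact p of 0.05 without Co replicate 3. DNMT1 to UHRF1 ran from -0.40 to 0.0335 for FeEV treatment vs. Co and from -0.26 to 0.18 for FoEV vs. FeEV treatment. TET1 to TET3 ran from -0.33 to -0.16 for FoEV treatment vs. Co (passing without Co replicate 1), from -0.0617 to 0.11 for FeEV treatment vs. Co and from -0.34 to -0.18 for FoEV vs. FeEV treatment (passing without FoEV replicate 4 or FeEV replicate 1). The summed ratio ran from 0.20 to 0.31 for FoEV treatment vs. Co (passing without FoEV replicate 2 or Co replicates 1 or 5). The paired sign-flip test of 5 pairs cannot go below a p of 0.0625.

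With 5 pools per treatment, a p above the threshold does not show equal levels. UHRF1, at 21 to 93 counts, was the least precise. Transcript lengths, strand settings and separate fertilization runs were not at hand.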
